A study of Mus musculus with 4 samples.

Results

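The loci of Myc, of its long non-coding neighbour Pvt1 and of the related gene Mycn were read in 5 peak lists of CTCF and the cohesin subunit RAD21 from E12.5 whole mouse limbs, all on mm10. The members of this description are the peaks within the 3 gene bodies and 500 kb on either side. This rule by position used no peak value, but the genes were chosen with earlier results of these data known. Merged where they overlapped by at least 1 bp, the lists gave 33127 sites genome-wide, and 13 of them lay here, 4 around Myc and Pvt1 and 9 around Mycn. Myc and Pvt1 are neighbours on chromosome 15, so their flanks were joined into 1 window of 1.39 Mb, 61485391 to 62878096, and the Mycn window covers 1.01 Mb of chromosome 12, 12436093 to 13441914. CTCF and RAD21 were each measured by ChIPmentation, which is chromatin immunoprecipitation with tagmentation of the bound chromatin, in 2 replicates of pooled limbs (4 limbs are named in the methods), from B6CBAF1 embryos that were TgN(38-40)/Wt; del(CS38-40)-/- throughout. TgN(38-40) is a fosmid transgene of the HoxD region CS38-40, hemizygous here at its insertion on chromosome 10, and both native copies of CS38-40 on chromosome 2 are deleted, so that neither change lies on chromosome 12 or 15. RAD21 of wild-type limbs is 1 ChIP-seq library of an earlier study, so genotype and assay cannot be told apart between the RAD21 lists. No wild-type CTCF list was used here.

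Myc and Mycn encode transcription factors of the basic helix-loop-helix leucine zipper class, which bind DNA as dimers with MAX and drive growth and proliferation. Mycn is known for its role in the limb bud mesenchyme. Pvt1 is a long intergenic non-coding RNA gene that starts downstream of Myc, and in human cells its promoter is known to compete with that of MYC for enhancers, while a CTCF site upstream of the human MYC promoter is known to bring distal enhancers to the gene. CTCF binds an asymmetric DNA motif, and cohesin extruding a chromatin loop is held preferentially where motifs at the loop ends point toward each other.

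The 7 CTCF sites of the windows each held a match to the CTCF motif near the summit of at least 1 replicate, and these are the sequences on which the strand calls rest. The motif was learned from strong CTCF peaks of other chromosomes, has the consensus NNNCCACNAGNGGGCNNNN, and was searched on both strands within 50 bp of each peak summit at a score reached by 5% of sequences 1000 bp away. By replicate, the match was found at 4 of 6 peaks of replicate 1, against 58.8% of its peaks genome-wide, and at 5 of 7 peaks of replicate 2, against 73.2%. The Myc distal and Nbas intron matches rest on the summit of replicate 1 alone, those of the Myc upstream and Mycn distal sites on replicate 2 alone, and the Mycn upstream site was a peak of replicate 2 only. Each sequence is that of mm10, 5′ to 3′ on the strand of its motif, with the match in capitals.
Myc distal site, chr15:61618746-61618804, plus strand: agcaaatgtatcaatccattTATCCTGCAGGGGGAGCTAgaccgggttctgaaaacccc
Myc upstream site, chr15:61983408-61983466, plus strand: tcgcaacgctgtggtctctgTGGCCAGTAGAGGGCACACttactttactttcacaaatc
Mycn distal site, chr12:12623103-12623161, plus strand: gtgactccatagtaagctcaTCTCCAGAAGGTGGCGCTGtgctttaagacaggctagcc
Mycn intron site, chr12:12939121-12939179, minus strand: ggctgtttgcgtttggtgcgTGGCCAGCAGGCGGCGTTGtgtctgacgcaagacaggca
Mycn upstream site, chr12:12942567-12942625, minus strand: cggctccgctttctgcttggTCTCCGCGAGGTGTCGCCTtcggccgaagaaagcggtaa
Ddx1-side site, chr12:13215068-13215126, minus strand: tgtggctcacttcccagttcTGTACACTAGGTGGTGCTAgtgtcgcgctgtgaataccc
Nbas intron site, chr12:13293680-13293738, plus strand: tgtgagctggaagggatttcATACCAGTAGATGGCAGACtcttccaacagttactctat

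Myc (ENSMUSG00000022346.15, chromosome 15, 61985391 to 61990374, plus strand) had a CTCF site of below-median fold just upstream of its start site. This Myc upstream site spans 61983258 to 61983639, ends 1752 bp before the Myc start site and overlaps an exon of Gm37947, a gene model on the minus strand that still awaits experimental support. Its CTCF peaks were enriched 5.47-fold in replicate 1 and 7.08-fold in replicate 2. The fold is the authors' ratio of reads piled up at a summit over those expected locally, and it was compared only within a list, as a percentile, the share of that list's peaks with a lower or equal fold. The site stood at percentile 26.4 in replicate 1 and 42.3 in replicate 2, below the median peak in both. No RAD21 peak of either TgN(38-40) replicate on mm10 overlapped it, against a RAD21 peak of fold 4.40 and percentile 47.4 in the wild-type library. On the TgN(38-40) custom genome, whose positions on chromosome 15 matched those of mm10, the same RAD21 library of replicate 1 did have a peak there, of fold 4.95 at percentile 11.6 of its list. Its motif, TGGCCAGTAGAGGGCACAC, lies on the plus strand and points toward Myc and Pvt1, and its score stood at percentile 84.95 among the strong CTCF peaks from which the motif was learned, the highest of the 7 sites. The match lay within 50 bp of the summit in replicate 2 only, since the summit of replicate 1 fell 114 bp before the centre of the motif.

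Within Myc itself, RAD21 was called at 2 places without CTCF. The site in the Myc first exon (61985450 to 61985821) begins 59 bp past the start site, in sequence annotated as untranslated region. It was a peak of the wild-type RAD21 list only, with a fold of 3.06 at percentile 20.0, and held no CTCF motif. The site in the Myc gene body (61986857 to 61987331) overlaps an exon and untranslated sequence. It held a RAD21 peak of TgN(38-40) replicate 2 of fold 3.80 and a wild-type RAD21 peak of fold 3.49. The wild-type peak overlaps an annotated Myc transcript start, and the TgN(38-40) peak lies 13 bp downstream of the nearest such start. By fold the TgN(38-40) peak ranked 14740 of 14787 in its list, percentile 0.325, and by −log10 q, 3.50, it stood at percentile 6.44. The wild-type peak was at percentile 30.4. The site held a plus-strand match to the CTCF motif at the score reached by 5% of flanking sequences, short of that reached by 1%, although neither replicate had a CTCF peak there. This was the only RAD21 peak of TgN(38-40) limbs in the whole Myc-Pvt1 window, and it rests on replicate 2 alone, whose list on the custom genome lacked it. Both Myc sites were rich in CpG, with observed over expected ratios of 0.767 in the first exon and 0.909 in the gene body, against a median of 0.265 over 4354 RAD21 sites of the genome without CTCF, of which 16.9% reached 0.75. Of the RAD21 peaks genome-wide, 8.89% in TgN(38-40) replicate 2 and 19.1% in the wild-type list overlapped no CTCF peak, and of those, 22.6% in TgN(38-40) replicate 2 and 32.5% in the wild-type list lay within 2500 bp of a protein-coding transcript start.

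**Figure D1:**
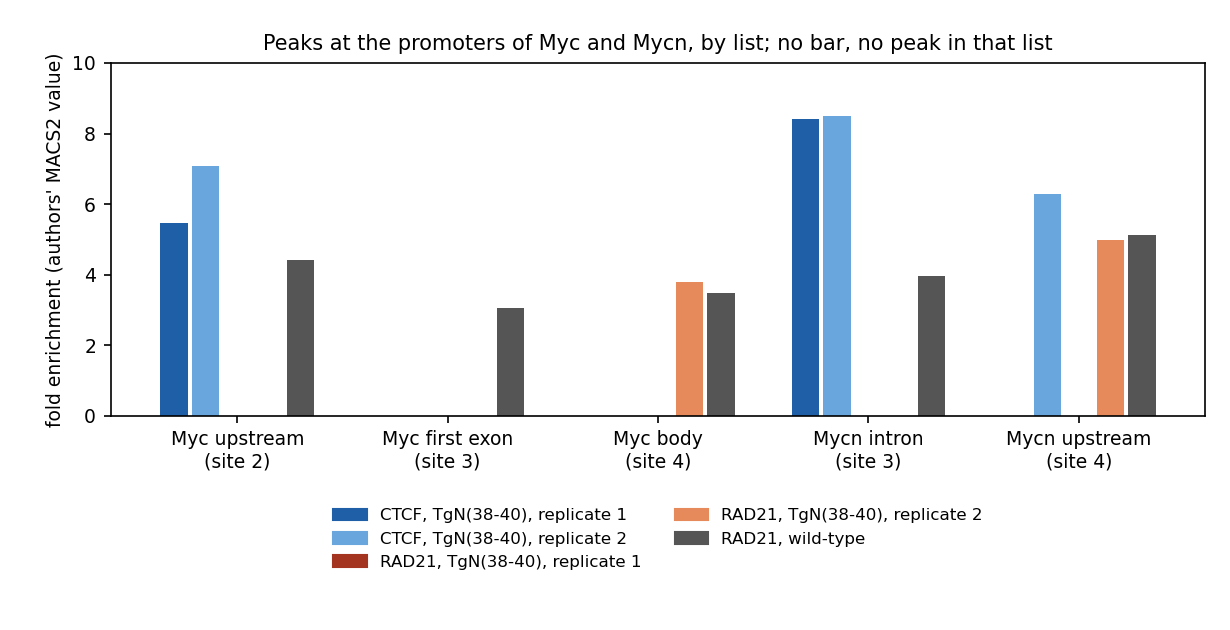
Fold over local expectation (y axis, the authors' MACS2 ratio) of every peak at the promoters of Myc and Mycn, by list, 1 bar per peak with no error bar since each bar is 1 library. The Myc upstream site has CTCF bars of 5.47 and 7.08 and a wild-type RAD21 bar of 4.40, both Myc sites to its right lack CTCF, and RAD21 of TgN(38-40) replicate 1 has no bar at any of the 5 sites; heights are comparable within a list only.

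Pvt1 (ENSMUSG00000097039.8, chromosome 15, 62037986 to 62378096, plus strand) held no peak of any of the 5 lists, neither at its start site nor in its 340111 bp. The nearest sites lay to the left, in and around Myc. From the Pvt1 start, the Myc gene-body site was 50.7 kb upstream, and the nearest CTCF peak, that of the Myc upstream site, was 54.4 kb upstream in both replicates. Of 462 protein-coding and lincRNA genes on autosomes that are at least as long as Pvt1, 27 (5.84%) held no peak in their body, among them 2 of 17 lincRNA genes and 25 of 445 protein-coding genes. An absent peak is a position below the threshold of the peak caller, and is not shown to be unbound.

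The peak-free stretch around Pvt1 ran from the Myc gene body at 61987332 to 63340382, 1.35 Mb in all. It reached 0.962 Mb beyond the end of Pvt1. Among 32290 gaps between neighbouring sites on autosomes it ranked 108th by length, and gaps at least this long made up 0.334%. This is a share by number of gaps and not by the sequence they cover. The stretch was taken because it holds Pvt1, and any position is likelier to fall in a long gap than in a short one. The median gap was 29.3 kb and the 99th percentile 725 kb. The stretch held no undetermined bases, and 29.1% of it was soft-masked repeat, against 32.6% of chromosome 15. Of the 108 gaps of this length or more, 102 held few or no undetermined bases. In the lists taken one by one the stretch around Pvt1 was 1.36 Mb in both CTCF replicates, 1.35 Mb in RAD21 of TgN(38-40) replicate 2 and 1.35 Mb in wild-type RAD21. In the shorter RAD21 list of TgN(38-40) replicate 1 it was longer, 2.58 Mb.

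**Figure D2:**
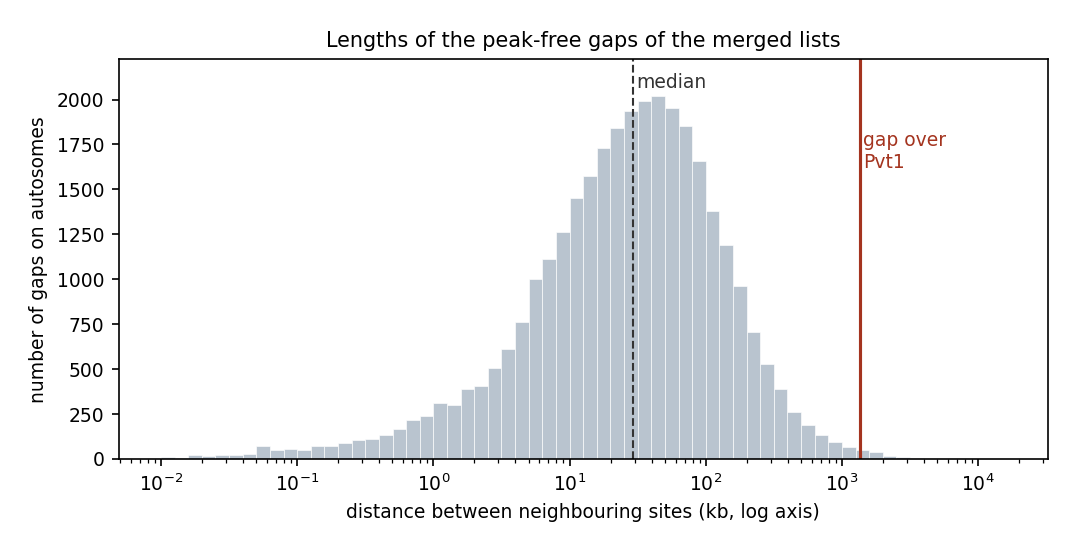
Distances between neighbouring sites of the 5 merged lists on autosomes (x axis in kb, logarithmic; y axis, number of gaps). The gap over Pvt1, 1353 kb, lies in the right tail at rank 108 of 32290, against a median of 29.3 kb.

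On the other side of Myc, the Myc distal site was the only CTCF site within 500 kb upstream besides that at the promoter. It lies at 61618682 to 61618873, in an intron of the lincRNA gene D030024E09Rik and 367 kb upstream of the Myc start. Its CTCF peaks were weak, with a fold of 5.04 at percentile 17.1 in replicate 1 and 4.34 at percentile 2.26 in replicate 2, and no RAD21 list had a peak there. The motif is on the plus strand, toward Myc. It was found from the summit of replicate 1, 24 bp away, and the summit of replicate 2 lay 80 bp from it.

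Strong sites of the region stood outside the window. To the left, 327 kb beyond its edge, the site at 61157491 to 61157932 was in all 5 lists, with CTCF at percentile 97.8 and 94.7, RAD21 of TgN(38-40) limbs at percentile 53.5 and 93.1, and wild-type RAD21 at percentile 93.9. It had no motif within 50 bp of its summits. To the right, 462 kb beyond the edge, the site at 63340383 to 63340835 that ends the peak-free stretch had weak CTCF peaks, at percentile 19.1 and 3.26, beside strong RAD21, at percentile 94.8 in TgN(38-40) replicate 2 and 82.0 in wild-type limbs. Its motif is on the minus strand and faces that of the Myc upstream site, 1357 kb away.

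**Figure D3:**
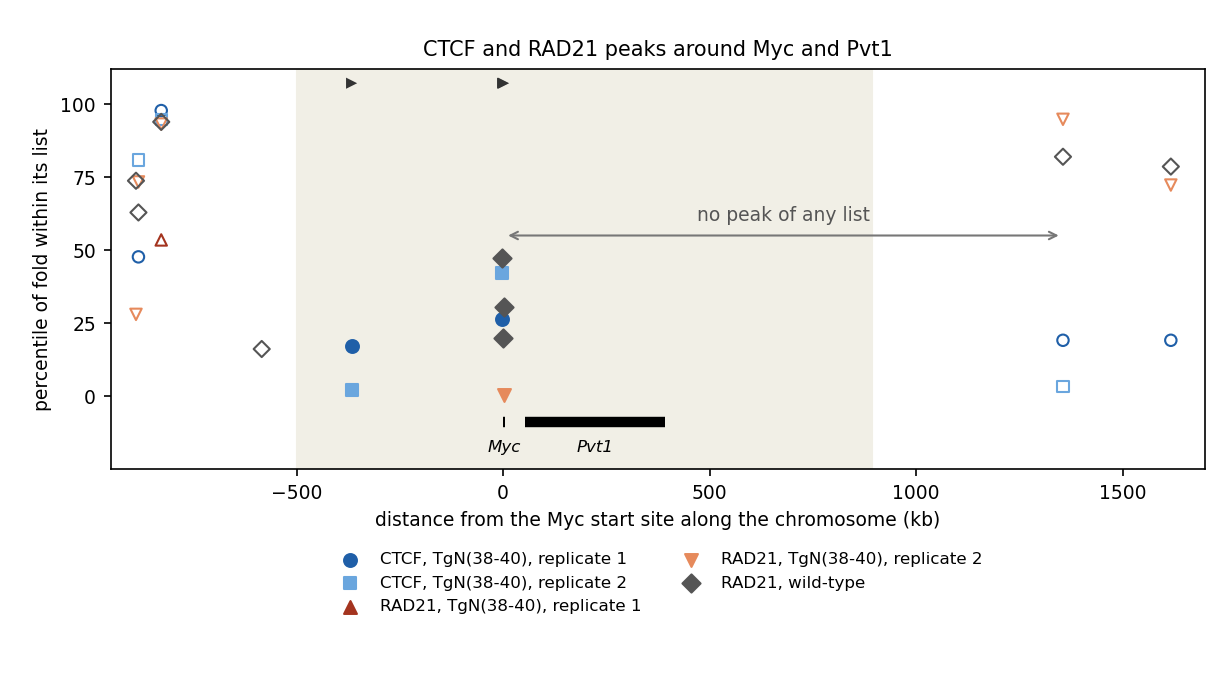
Every peak of the 5 lists around Myc and Pvt1 by distance from the Myc start site (x axis, kb) and by percentile of fold within its list (y axis); the shaded band is the window, filled symbols are its peaks, open symbols the nearest peaks outside, black bars the genes and triangles the direction of the motif at sites that hold one. Peaks cluster at Myc below percentile 50, and none lies over Pvt1.

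Mycn (ENSMUSG00000037169.15, chromosome 12, 12936093 to 12941914, minus strand) carried CTCF sites on both sides of its start, inside the gene and upstream. The Mycn intron site (12938914 to 12939333) had CTCF peaks of fold 8.41 in replicate 1 and 8.50 in replicate 2, at percentile 81.4 and 60.8. Neither TgN(38-40) replicate had a RAD21 peak there, against a wild-type RAD21 peak of fold 3.95 at percentile 39.8. The site lies 1283 to 1341 bp downstream of the nearest annotated Mycn transcript start, depending on the list, and the CTCF peak of replicate 1 lies 2639 bp downstream of the main start. Its motif is on the minus strand, the strand of Mycn itself.

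The Mycn upstream site (12942369 to 12942774) begins 455 bp upstream of the Mycn start. CTCF was called there in replicate 2 only, with a fold of 6.30 at percentile 31.0. RAD21 was called in TgN(38-40) replicate 2, with a fold of 4.99 at percentile 10.8, and in the wild-type library, with a fold of 5.14 at percentile 58.0. The sequence is a CpG-rich promoter sequence, with an observed over expected ratio of 0.998, against a median of 0.238 over 28683 CTCF sites. Its motif on the minus strand is the weakest of the 7, at percentile 14.85 of the training scores, and falls short of the score reached by 1% of flanking sequences. The Mycn intron site was thus the stronger for CTCF and the Mycn upstream site the stronger for RAD21, in TgN(38-40) replicate 2 and in wild-type limbs alike.

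By fold, the strongest of the 13 sites in every list that called more than 1 of them was the Ddx1-side site, at 13214768 to 13215301, intergenic and 273 kb upstream of the Mycn start. It lies 1672 bp beyond the 3′ end of Ddx1, which encodes a DEAD-box RNA helicase and is known to be co-amplified with MYCN in human neuroblastoma. It was the only site of either window in all 5 lists. CTCF had a fold of 9.55 in replicate 1, rank 1987 of 23829, and 17.9 in replicate 2, rank 54 of 26264. RAD21 had a fold of 6.24 in TgN(38-40) replicate 1, percentile 53.5, a fold of 13.0 in TgN(38-40) replicate 2, rank 427 of 14787, and a fold of 11.8 in wild-type limbs, rank 61 of 20874. The replicates place it differently, at percentile 91.7 and 99.8 for CTCF and 53.5 and 97.1 for RAD21, and all but the RAD21 peak of replicate 1 stand above percentile 90. By −log10 q in CTCF replicate 1 it came second to the Mycn intron site, 14.9 against 15.0. Its motif is on the minus strand, toward Mycn, although its score is only at percentile 30.45 of the training scores.

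The Mycn distal site lies on the opposite side, 319 kb beyond the Mycn start in the direction of transcription, at 12622955 to 12623367. It had CTCF folds of 5.89 at percentile 36.2 in replicate 1 and 9.12 at percentile 67.8 in replicate 2, RAD21 of fold 7.68 at percentile 55.8 in TgN(38-40) replicate 2, and wild-type RAD21 of fold 5.42 at percentile 61.4. Its motif is on the plus strand, so it and the Ddx1-side site face each other across Mycn, 591 kb apart. The minus-strand motifs of the Mycn intron and Mycn upstream sites lie between them and also face the Mycn distal site, from nearer. The Nbas intron site (13293555 to 13293979), in a gene for a protein of Golgi-to-ER transport, was weaker. Its CTCF folds were 5.66 at percentile 31.7 and 4.77 at percentile 6.07, and its RAD21 folds were 6.05 at percentile 28.8 in TgN(38-40) replicate 2 and 5.80 at percentile 65.8 in wild-type limbs. Its motif is on the plus strand and points away from Mycn.

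The other 4 sites of the Mycn window were RAD21 peaks of the wild-type library alone. The intergenic peaks at 13042988 and 13185147 and the peak at 13248738, in an intron of Ddx1 and 195 bp downstream of a Ddx1 start, had folds of 2.24, 2.33 and 2.28, between percentile 2.02 and 3.30, and none held a motif. Ddx1 was the only other protein-coding gene of either window with a peak within 2500 bp of a start. The peak at 12436470, 377 bp inside the left edge of the window, had a fold of 3.59 at percentile 33.3 and a plus-strand motif. Just outside that edge, 14.8 to 39.5 kb away, stood 4 CTCF sites, the nearest in all 5 lists with CTCF at percentile 95.5 and 90.7 and wild-type RAD21 at percentile 99.4, so the count for Mycn depends on where the window ends.

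**Figure D4:**
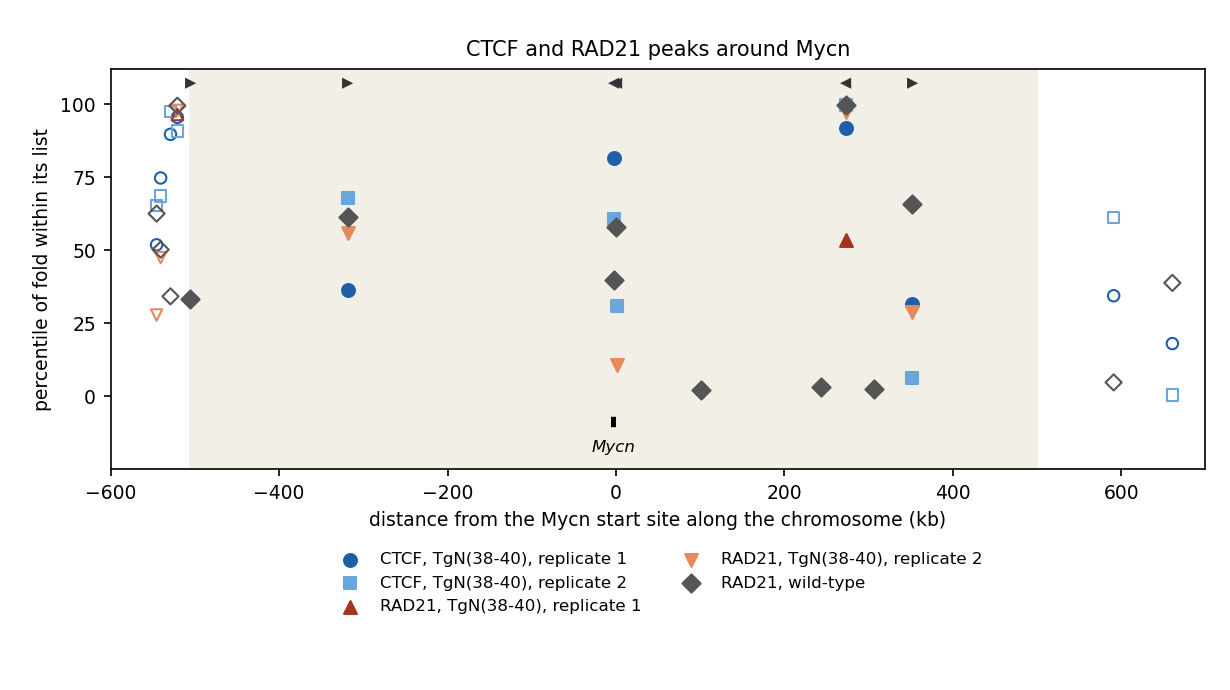
Every peak of the 5 lists around Mycn by distance from its start site along the chromosome (x axis, kb; Mycn is transcribed to the left) and by percentile of fold within its list (y axis), drawn as for Myc and Pvt1. The Ddx1-side site, at 273 kb, reaches percentile 99.8 in CTCF replicate 2, and the wild-type RAD21 peaks at 101, 243 and 307 kb lie below percentile 4.

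Across both windows, 6 of the 7 CTCF sites were called in both replicates, against 73% of 28789 CTCF sites of the genome, and the exception was the Mycn upstream site. RAD21 of TgN(38-40) limbs in either replicate overlapped 0 of 2 CTCF sites around Myc and Pvt1 and 4 of 5 around Mycn, against 47% genome-wide. All 4 had a RAD21 peak in replicate 2, and of these only the Ddx1-side site was also called in replicate 1. Wild-type RAD21 overlapped 1 of 2 and 5 of 5, against 58.7% genome-wide. The RAD21 replicates of TgN(38-40) limbs held 4102 and 14787 peaks, so absences in replicate 1 go with a short list. The wild-type library had 3 peaks around Myc and Pvt1 and 9 around Mycn. With 2 sites in the Myc-Pvt1 window and 5 in the Mycn window, these counts allow no statement that the loci differ from the genome.

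The Myc-Pvt1 window held 1.44 CTCF sites per Mb, and the Mycn window 4.97, against 11.5 over the autosomes. Of 1717 consecutive stretches of the length of the Myc-Pvt1 window, 10.7% held 2 or fewer CTCF sites, and the median stretch held 14. Of 2380 stretches of the length of the Mycn window, 31.6% held 5 or fewer, and the median held 10. The strongest CTCF site of each window, averaged over the replicates, stood at percentile 34.4 ± 11.2 at the Myc upstream site and 95.7 ± 5.75 at the Ddx1-side site (SD, n = 2 replicates each). The former is the stronger of 2 sites and the latter the strongest of 5, and a maximum over more sites tends to rank higher.

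Motif strands around Myc and Pvt1 were plus at 2 of 2 CTCF sites, and around Mycn plus at 2 and minus at 3 of 5. Genome-wide, 50.1% of the motifs under CTCF peaks were on the plus strand in each replicate. Wild-type RAD21 summits lay downstream of the motif at 5 of 6 CTCF sites. At the 6 CTCF sites with a wild-type RAD21 peak, the RAD21 summit was 35 bp downstream of the motif centre at the Myc upstream site, and at the Mycn sites it was 23, 52, 38 and 37 bp downstream at the distal, upstream, Ddx1-side and Nbas intron sites. At the Mycn intron site it was 22 bp upstream. Over 12337 wild-type RAD21 peaks with a motif, 87.5% had their summit downstream and the median was 20 bp. In the TgN(38-40) RAD21 lists the share was lower, 63.4% in replicate 1 and 63.7% in replicate 2. Of the wild-type RAD21 peaks with a motif but no CTCF peak, the summit lay 29 bp downstream at the left edge of the Mycn window and 7 bp upstream in the Myc gene body.

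At the promoters, taken as 2500 bp on either side of any annotated transcript start, CTCF was called at Myc and Mycn and not at Pvt1, against 25.8% of 21938 protein-coding genes. RAD21 was called at Myc and Mycn in TgN(38-40) limbs, in replicate 2 only, against 12.2% of protein-coding genes in that list. At Myc this call is the gene-body peak alone, at percentile 0.325 of its list and absent from that library's list on the custom genome. In wild-type limbs RAD21 was called at the same 2 genes, against 19.2%. The partners and relatives of the 2 MYC proteins gave a background of the same family. Of 11 such genes, 6 had a CTCF peak in at least 1 replicate, 5 a RAD21 peak of TgN(38-40) limbs and 6 a wild-type RAD21 peak. Mycl, the remaining MYC paralogue, had CTCF at percentile 51.1 and 58.5, RAD21 of TgN(38-40) replicate 2 at percentile 6.40 and wild-type RAD21 at percentile 36.3, its CTCF peaks overlapping a start site. Of the genes for MAX-binding repressors, Mxd1 had CTCF at percentile 94.9 and 64.4, 1704 and 1711 bp upstream of a start, Mxd3 had CTCF at percentile 72.3 and 90.7 with wild-type RAD21 at percentile 17.3, and Mxi1 had CTCF peaks at 2 of its starts. Mnt, Mxd4 and Mga, which also bind MAX, had no peak in any list. Max itself and Mlx, the obligate partners of the network, had none either. Mlxip, a glucose-sensing partner of MLX, was the only one of the 11 with a RAD21 peak of TgN(38-40) replicate 1, at percentile 34.6, and had CTCF at percentile 92.6 and 87.5. Mlxipl, its relative, had CTCF in replicate 1 only, at percentile 15.0. The Myc upstream site, at percentile 26.4 and 42.3, thus ranked below the CTCF peaks of 5 of these 6 promoters in both replicates.

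**Figure D5:**
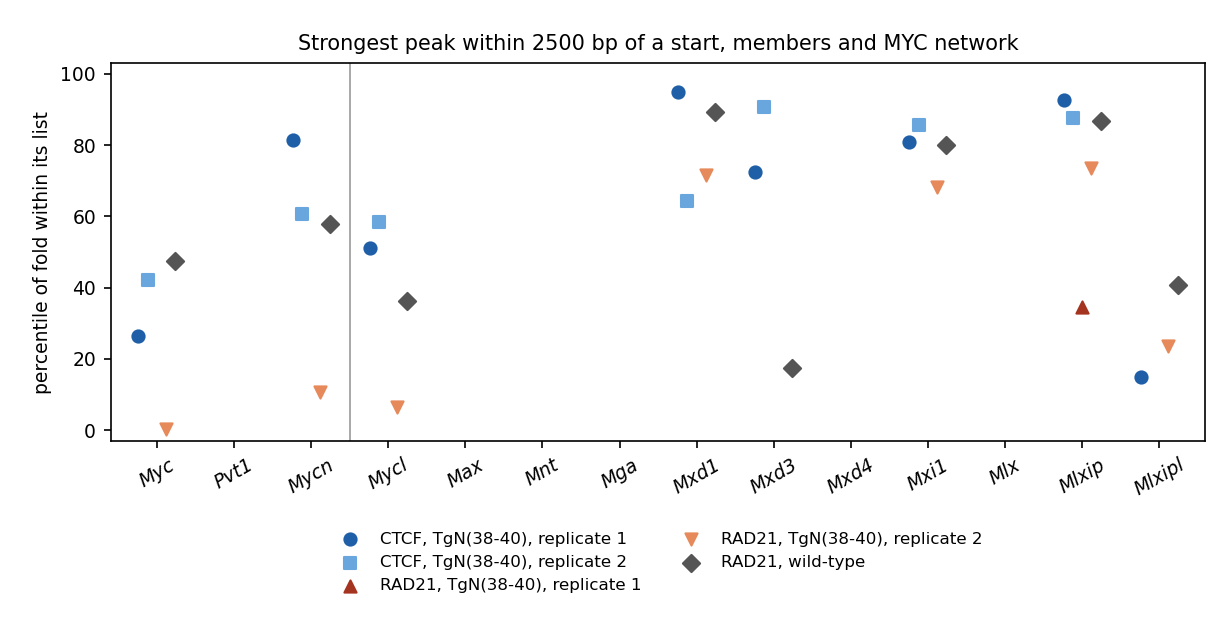
Percentile of fold within its list (y axis) of the strongest peak within 2500 bp of a transcript start, for the 3 members and the 11 MYC network genes (x axis), with 1 symbol per list and no symbol where the list has no peak. Pvt1, Max, Mnt, Mga, Mxd4 and Mlx have none, and CTCF at Myc, percentile 26.4 and 42.3, stands below CTCF at Mycn, 81.4 and 60.8.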

How the data were processed

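ChIPmentation of CTCF and RAD21 used whole E12.5 limbs with TgN(38-40) over del(CS38-40)-/- (2 replicates per antibody), and RAD21 of wild-type limbs came from 1 earlier ChIP-seq library. Inputs had no list here and were not used. The authors called peaks with MACS2 on each replicate, on mm10 and on a TgN(38-40) custom genome. All reads, also those with several locations, were kept on the custom genome. MACS2 2.1.1.20160309, Bowtie2 2.3.4.1 and 2.3.5 and cutadapt 1.16 are listed in the submitters' processing notes. Each deposited fold is a ratio of the pileup to the local expectation, and each deposited q-value is given as −log10 by the authors, with every peak under 0.05. The MACS2 control and the read numbers are not given in the sources used here, so depth and the error of a fold are unknown. The wild-type values are the authors' own, from 1 library.

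Peaks of the 5 mm10 lists were merged at 1 bp of overlap and ranked within their list by fold. Genes are those of GENCODE M21 and sequences those of GRCm38. The 19 bp CTCF motif was learned from 2000 peaks of CTCF replicate 2, the strongest after the first 100 by q-value, on autosomes other than 2, 10, 12, 15 and 18. In simulated data a motif was planted in each of 600 sequences and learned anew from them. It was found at its place, up to a constant shift, and strand in 99.7%. This checks the learning step only, since no sequence lacked the motif, and gives no error for the strand calls made here. Named were the members, every site at their bodies or promoters (2500 bp), the 5 strongest CTCF sites of each window, RAD21 sites without CTCF, neighbouring genes with a promoter peak and 11 MYC network genes. Members and lists were chosen with earlier results of these data known. Peaks are not replicates and the lists hold no counts, so no test was run, and sites are given by rank beside the share over the genome. Alternatives were stricter q-values, the custom genome, summit distance in place of overlap, each replicate left out, other flanks, promoter widths, ranking by q-value, a stricter motif score and, chosen after seeing the data, wild-type in place of TgN(38-40) RAD21. Python 3.11.15, numpy 2.4.6, pandas 2.3.3 and matplotlib 3.10.9 were used.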

Additional observations from a re-analysis of the deposited data

Results flagged for a closer look

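The RAD21 library of TgN(38-40) replicate 1 had a peak at the Myc upstream CTCF site in its list on the custom genome, which the comparisons do not use, and none on mm10. Its fold was 4.95, rank 3663 of 4142, and its −log10 q was 3.72. Of the RAD21 peaks of this replicate on chromosomes 12 and 15, 80.9% of the 341 found on the custom genome and 83.0% of the 330 found on mm10 had a counterpart in the other list.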

How the results depend on the processing

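Of 76 alternative values, 48 stayed within 1.5 times the reported count or within 1 SD of the reported percentile, and 28 moved. The percentiles without a replicate are left out of this count, since with 2 replicates they cannot move by 1 SD. At −log10 q of at least 5, CTCF sites around Myc and Pvt1 numbered 1, RAD21 sites away from CTCF 3 and members with RAD21 at the promoter 1. At 10, CTCF sites numbered 0 around Myc and Pvt1 and 3 around Mycn, 2 of the Mycn sites held RAD21, and CTCF and RAD21 stood at the promoters of 1 and 0 members. With flanks of 250 kb, CTCF sites numbered 1 around Myc and Pvt1, with 1 plus-strand motif, and 2 around Mycn, of which 1 held RAD21 and 0 a plus-strand motif. With 1000 kb they numbered 5 around Myc and Pvt1, of which 3 held RAD21, and 17 around Mycn, of which 11 held RAD21 and 7 a plus-strand motif. On the custom genome 1 CTCF site around Myc and Pvt1 held RAD21 in place of 0, as with wild-type RAD21, an alternative chosen after seeing the data. Promoters of 1000 bp left CTCF at 1 member and 2 network genes.

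Leaving out a replicate gave 2 CTCF sites around Myc and Pvt1 in either case and 4 to 5 around Mycn, 0 sites with RAD21 around Myc and Pvt1, 1 to 4 around Mycn, 6 to 7 RAD21 sites away from CTCF, CTCF at 2 members and RAD21 at 0 to 2, CTCF at 5 to 6 network genes, percentiles of 26.4 to 42.3 and 91.7 to 99.8, and 1 plus-strand motif in each window, since summits of the replicates differ. Without replicate 2, no TgN(38-40) RAD21 peak remained at a member's promoter. No paired analysis was possible because no test was run on these lists. The depth of the lists is unknown, so what depth limits was not tested, and a missing peak is only a signal below the threshold of MACS2.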
